A study of Mus musculus with 4 samples.

Results

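Prom1, Prom2, Epcam, Cd24a and Cd44 encode the prominins and 3 other surface proteins that are used to mark liver progenitor and bile duct cells. They were taken by symbol from the gene table. All 5 were found among its 41128 gene identifiers, 40254 of which carry a symbol, and all 5 passed the minimum of 10 counts in 1 or more libraries that 21640 genes passed. C57BL/6 mice were given a model of alcoholic hepatitis: 40% of calories came from a high cholesterol fat diet eaten freely, 60% from an alcohol-containing liquid diet given by intragastric feeding, and a weekly binge was added. Collagenase-digested livers were freed of hepatocytes by low centrifugation and of CD45+ cells with magnetic beads, which left the presorted CD45- cells. Flow sorting used CD45, Prom1 and the integrin alpha 6 chain CD49f. The sorted cells were Prom1+CD49f+CD45-, named Prom1+CD45- cells here, Prom1-CD49f+CD45-, named Prom1-CD45- cells, and a population labelled Prom1+CD49f+CD45+, named the library labelled Prom1+CD45+. Each library holds the pooled RNA of 2 mice, and each of the 4 populations had 1 library, so no difference has a replicate check. All 4 populations come from treated mice, and neither age nor sex is given in the labels.

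Prominins are pentaspan membrane proteins that bind cholesterol and sit in microvilli and other membrane protrusions, and prominin-1 (CD133) is the surface protein used to sort progenitor-like cells from liver. EpCAM is an adhesion protein of epithelia that in adult liver is found mainly on bile duct cells. CD24 is a small, heavily glycosylated protein held in the membrane by a lipid anchor, and CD44 is a receptor for hyaluronan that also binds osteopontin and is made by many cell types, leukocytes included.

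The 5 genes lie on 4 chromosomes of mm10. Prom1 (ENSMUSG00000029086) is at chr5:43993620-44102032 and Prom2 (ENSMUSG00000027376) at chr2:127526473-127541467, both on the minus strand. Epcam (ENSMUSG00000045394) is at chr17:87635979-87651129 and Cd24a (ENSMUSG00000047139) at chr10:43578284-43584265, both on the plus strand, and Cd44 (ENSMUSG00000005087) is at chr2:102811141-102901665 on the minus strand. GENCODE vM21 gives 19 transcripts for Prom1, 4 for Prom2, 5 for Epcam, 3 for Cd24a and 9 for Cd44. Their merged exons span 7175, 5187, 2195, 2580 and 6776 bases, in the same order.

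The bases before 4 of the genes' annotated starts are printed because all 5 genes had their highest level in 1 and the same library. Cd24a is missing because the promoter sequences used here held no entry for it. Sequences are from RefSeq on GRCm38.p6, 5′ to 3′ on the gene's strand, and capitals mark motif matches on either strand. The search covered 6 short motifs, and for each the share of 32536 mouse promoter windows of 250 bases that hold it is given. AP-1, the site of Fos and Jun proteins, was searched as TGANTCA and is in 6.73% of windows. For TEAD factors of the Hippo pathway the letters were GGAATG, held by 12.6%. The E-box of Snail and ZEB proteins was searched as CAGGTG, held by 17.3%, and the GC box of Sp1 as GGGCGG, held by 33.0%. A piece of the site of the hepatic factor HNF1 was searched as GTTAAT, held by 6.47%, and the TATA box as TATAAA, held by 12.3%. For Prom1 the window of the other annotated start began inside an annotated exon and was left out. The Prom1 window printed precedes the later of its annotated starts, at chr5:44094769-44095018, where longer transcripts have an intron. The others are chr2:127541468-127541667 for Prom2, chr17:87635729-87635978 for Epcam and chr2:102901666-102901915 for Cd44.
Prom1: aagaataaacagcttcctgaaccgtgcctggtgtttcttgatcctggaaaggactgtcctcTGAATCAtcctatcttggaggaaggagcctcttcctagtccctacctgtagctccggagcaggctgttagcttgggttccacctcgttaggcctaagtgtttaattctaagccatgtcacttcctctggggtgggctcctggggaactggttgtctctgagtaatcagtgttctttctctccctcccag
Prom2: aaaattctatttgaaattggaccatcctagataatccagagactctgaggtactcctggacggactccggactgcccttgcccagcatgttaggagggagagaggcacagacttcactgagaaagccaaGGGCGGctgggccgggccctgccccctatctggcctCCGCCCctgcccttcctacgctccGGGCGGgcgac
Epcam: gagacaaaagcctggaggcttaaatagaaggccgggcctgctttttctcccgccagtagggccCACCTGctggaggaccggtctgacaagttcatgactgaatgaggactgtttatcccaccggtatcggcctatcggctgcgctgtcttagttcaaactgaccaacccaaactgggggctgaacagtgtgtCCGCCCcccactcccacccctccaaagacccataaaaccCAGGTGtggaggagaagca
Cd44: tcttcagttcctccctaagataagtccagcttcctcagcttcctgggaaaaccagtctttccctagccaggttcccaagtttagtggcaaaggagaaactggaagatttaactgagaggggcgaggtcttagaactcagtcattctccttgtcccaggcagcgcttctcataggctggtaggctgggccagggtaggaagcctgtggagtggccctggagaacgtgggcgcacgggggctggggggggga
In the Prom1 window the only match was an AP-1 match beginning 189 bases before the start. The Prom2 window leaves out the 50 bases next to the RefSeq start, from the first annotated exon base on. GC box letters stood 121, 85 and 61 bases before that RefSeq start, counted with the bases left out. The Epcam window held E-box letters 187 and 19 bases before the start and GC box letters 58 bases before it. No motif was shared by all 4 windows, and the Cd44 window held none of the 6. For windows of 200 bases, the length of that of Prom2, 24.8% held the GC box. G and C made up 50.8% of the Prom1 window, 60.0% of the Prom2 window and 56.4% of both the Epcam and Cd44 windows.

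Summed gene counts were 14670239 to 52293939 per library. Levels are given as TMM-scaled CPM, counts relative to library size after scaling by the trimmed mean of M values, and intervals are exact 95% intervals that cover counting error only. Itga6, the gene of CD49f, was at 72.9, 50.5 and 127 scaled CPM in the Prom1+CD45-, Prom1-CD45- and Prom1+CD45+ libraries and at 110.4 in presorted cells. Ptprc, the gene of CD45, was at 6.33, 3.60, 14.5 and 21.0 in the same order. The population labelled Prom1+CD45+ had less Prom1 and less Ptprc than presorted cells, so it is named by its label, as the library labelled Prom1+CD45+. The other names are sort labels as well: both CD49f+CD45- libraries had less Itga6 than presorted cells, and the highest Ptprc level was in the presorted CD45- library.

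Prom1 was at 355 scaled CPM (349 to 362) in Prom1+CD45- cells, 31.1 (28.2 to 34.1) in Prom1-CD45- cells, 11.4 (10.1 to 12.9) in the library labelled Prom1+CD45+ and 67.1 (64.7 to 69.6) in presorted cells. The 4 intervals do not overlap, and the lowest level was in a library whose label names Prom1 as positive. Because RNA was taken from cells in bulk, fewer cells with the transcript and less of it per cell cannot be told apart. Prom1 is the gene of the sorted protein, so its ratio between the CD49f+CD45- gates describes the sort. By level it ranked 263 among the 21640 genes in Prom1+CD45- cells and 5506 in Prom1-CD45- cells, where it still had 440 counts.

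Prom2, the second prominin, had few counts in every library. There were 117 counts in Prom1+CD45- cells, 1 in Prom1-CD45- cells, 1 in the library labelled Prom1+CD45+ and 33 in presorted cells. These are 3.41 scaled CPM (2.82 to 4.09), 0.0706 (0.00179 to 0.394), 0.0403 (0.00102 to 0.224) and 0.743 (0.511 to 1.04). The Prom1+CD45- library thus lay above every other, with the presorted library between it and a pair of libraries at 1 count. As a yardstick chosen after these values were seen, 1688 olfactory, vomeronasal and taste receptor genes were read in the same libraries. Of these, 99.7% were below Prom2 in Prom1+CD45- cells and 99.7% in presorted cells. In the library labelled Prom1+CD45+ only 31.0% were, and 72.5% were in Prom1-CD45- cells. At least 1 count was found for 69.0% of the receptor genes in the former library and 27.5% in the latter, so a single Prom2 count is within the range of this background. The Prom1+CD45- library had such a background too, with a count for 69.1% of the receptor genes, against 13.0% in presorted cells. The 95th percentile of the receptor genes was 0.846 scaled CPM in Prom1+CD45- and 0.0450 in presorted cells.

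Epcam was the highest of the 5 genes per length in all libraries except the one labelled Prom1+CD45+. It was at 670.2 scaled CPM (662 to 679) in Prom1+CD45- cells, 274 (265 to 283) in Prom1-CD45- cells, 10.4 (9.20 to 11.8) in the library labelled Prom1+CD45+ and 107 (104 to 110.4) in presorted cells. Cd24a was at 551 (543 to 559), 223 (215 to 231), 21.8 (20.0 to 23.8) and 103 (99.8 to 106), in the same order. Both genes had the same order of libraries, and no pair of intervals of either gene overlapped. Unlike Prom1, both were higher in Prom1-CD45- than in presorted cells.

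Cd44 spanned the narrowest range. It was at 57.6 scaled CPM (55.1 to 60.2) in Prom1+CD45- cells, 32.2 (29.3 to 35.3) in Prom1-CD45- cells, 16.4 (14.8 to 18.1) in the library labelled Prom1+CD45+ and 45.8 (43.8 to 47.8) in presorted cells. The intervals are separate, and the order of libraries is that of Prom1.

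**Figure D1:**
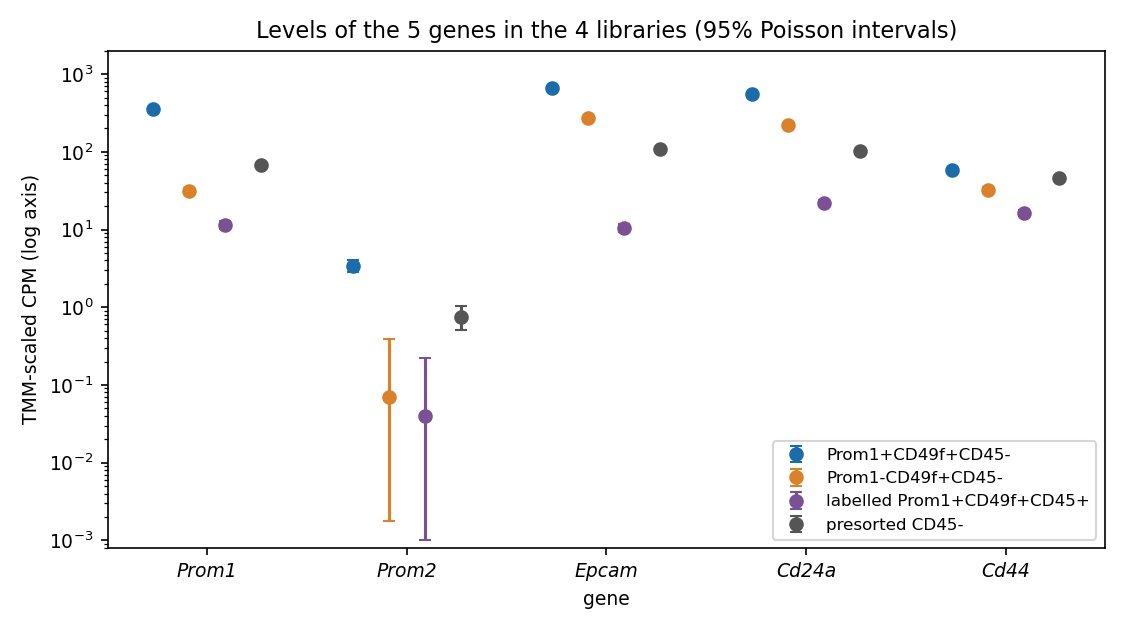
Levels of the 5 genes in the 4 libraries, in TMM-scaled CPM on a log axis, with exact 95% Poisson intervals as bars. Every gene is highest in Prom1+CD45- cells, and Prom2 rests on 1 count in each of 2 libraries.

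Divided by the length of the merged exons, the genes can be set beside each other within a library. In Prom1+CD45- cells Epcam was at 305 scaled CPM per kilobase, Cd24a at 214, Prom1 at 49.5, Cd44 at 8.50 and Prom2 at 0.658. In Prom1-CD45- cells Cd44, at 4.75 per kilobase, and Prom1, at 4.33, were close, behind Epcam at 125 and Cd24a at 86.5. In presorted cells the per kilobase values were 48.9 for Epcam, 39.8 for Cd24a, 9.36 for Prom1, 6.76 for Cd44 and 0.143 for Prom2. In the library labelled Prom1+CD45+ the order was another one, with Cd24a first at 8.46 per kilobase, then Epcam at 4.75, Cd44 at 2.42, Prom1 at 1.59 and Prom2 at 0.00777. The series title names Quant-seq, a method that reads transcript ends, while the labels name a stranded messenger RNA kit. For reads from transcript ends, division by length would not apply. Without it the order is the same as that given in all libraries except the one labelled Prom1+CD45+. There Cd24a was at 21.8 scaled CPM, Cd44 at 16.4, Prom1 at 11.4 and Epcam at 10.4, so Epcam is the second of the 5 genes per length and the fourth without that division.

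Prom1+CD45- cells were first compared with Prom1-CD45- cells, whose sort label differs in Prom1 only. A gene was called higher or lower where the whole interval of its ratio lay beyond 2-fold. Of the 5 genes 4 were called higher and 0 lower, beside 15.5% of all genes called higher and 12.7% lower, and the median log2 ratio was 1.30 for the 5 and 0.45 for all genes. Both the count and the median include Prom1, the gene of the sorted protein, whose call describes the sort. Prom1 was 11.4-fold higher (10.4 to 12.6), and Prom2, against 1 count, 48.3-fold (8.51 to 1925). Epcam was 2.45-fold higher (2.37 to 2.53) and Cd24a 2.47-fold (2.38 to 2.57), ratios that differ from each other by less than their counting error. Cd44 had a ratio of 1.79 (1.61 to 1.98) and was not called.

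Markers of other cells moved with the same contrast. Of 15 cholangiocyte markers 11 were called higher and 0 lower, with a summed level of 23012 scaled CPM in Prom1+CD45- and 9091 in Prom1-CD45- cells, most of it from Spp1. All 14 endothelial markers were called lower, with a summed level of 162 against 8130. None of these was at 0 counts in either library. Of 15 stellate cell and fibroblast markers 11 were called lower, with sums of 325 and 1290 and Thy1 at 0 counts in Prom1+CD45- cells. The part of cell composition in the ratios of the 5 genes was not tested.

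Against presorted CD45- cells, Prom1+CD45- cells again had 4 of the 5 genes called higher and 0 lower, where 27.6% of all genes were called higher and 15.6% lower. This comparison shares the Prom1+CD45- library with the one before, and its count again includes Prom1, the gene of the sorted protein. The median log2 ratio was 2.40 for the 5 genes and 0.19 for all genes. Epcam was 6.25-fold higher (6.06 to 6.45), Cd24a 5.37-fold (5.20 to 5.54), Prom1 5.29-fold (5.08 to 5.51) and Prom2 4.60-fold (3.10 to 6.99). The intervals of Prom1, Prom2 and Cd24a overlap one another, and that of Epcam overlaps only that of Prom2. Cd44 had a ratio of 1.26 (1.18 to 1.34), not called. Cholangiocyte markers went the same way, with 14 of 15 called higher, and summed to 3672 in presorted cells. Of 15 hepatocyte markers 12 were called lower, with sums of 7053 in Prom1+CD45- and 27251 in presorted cells, and Alb (albumin) was at 3241 against 5267. All 14 endothelial markers were called lower, with sums of 162 in Prom1+CD45- and 12580 in presorted cells. All 7 pan-leukocyte and 11 of 12 Kupffer cell and macrophage markers were also called lower. Their sums were 14.4 and 92.1 in Prom1+CD45- and 256 and 1119 in presorted cells. Their part in the ratios was not tested.

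Prom1-CD45- cells and presorted cells split the 5 genes. Epcam was 2.55-fold higher (2.45 to 2.66) and Cd24a 2.17-fold (2.08 to 2.27) in Prom1-CD45- cells, so 2 of the 5 were called higher and 0 lower, beside 9.77% and 14.1% of all genes. Prom1 had a ratio of 0.463 (0.418 to 0.512), which reaches past the 2-fold limit and is not called. Prom2, with 1 count against 33, had a ratio of 0.0951 (0.00234 to 0.568), and Cd44 one of 0.703 (0.634 to 0.779). With the trend of ratios on gene length removed, Epcam was at a ratio of 1.79 and Cd24a at 1.74, and neither was called. With a minimum of 1 count in place of 10, 1 of the 5 genes was called higher and 1 lower. Cholangiocyte markers were also divided, with 5 of 15 called higher and 1 lower. Among them Krt19, a keratin of duct cells, was 2.82-fold higher (2.68 to 2.96), while Sox9, a transcription factor gene of the duct lineage, had a ratio of 1.04 (0.980 to 1.11). Of 7 mesothelial markers, which include Krt19, 6 were called higher and 0 lower, with sums of 720.1 in Prom1-CD45- and 220 in presorted cells. All 15 hepatocyte markers were called lower, with sums of 5942 and 27251, as were all 12 Kupffer cell and macrophage markers (158 and 1119) and all 7 pan-leukocyte markers (30.4 and 256). The part of these cells in the ratios was not tested.

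In the library labelled Prom1+CD45+ all 5 genes were called lower than in presorted cells, where 12.1% of all genes were called lower and 23.8% higher. The median log2 ratio was -2.55 for the 5 genes and 0.09 for all genes. Prom2, at 1 count, was 18.4-fold lower (3.09 to 749.9) and Epcam 10.3-fold lower (9.07 to 11.7). Prom1 was 5.87-fold lower (5.19 to 6.65), Cd24a 4.70-fold lower (4.30 to 5.15) and Cd44 2.79-fold lower (2.51 to 3.11). Scaled by library totals, Cd44 was at a log2 ratio of -1.14 and no longer called, and in the authors' values Prom2 was at -0.52 and no longer called. Those values are CPM with 1 added, and without the added 1 Prom2 was at 0.0357 CPM there and 0.488 CPM in presorted cells. Cholangiocyte markers were lower as well, 14 of 15 by call, with a summed level of 409 against 3672 and Tff2 at 0 counts. Endothelial markers summed to 16669 against 12580, with 0 of 14 called, and the pan-leukocyte markers to 106 against 256, with 4 of 7 called lower in a library whose label names CD45 as positive. The part of these cells in the ratios was not tested.

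**Figure D2:**
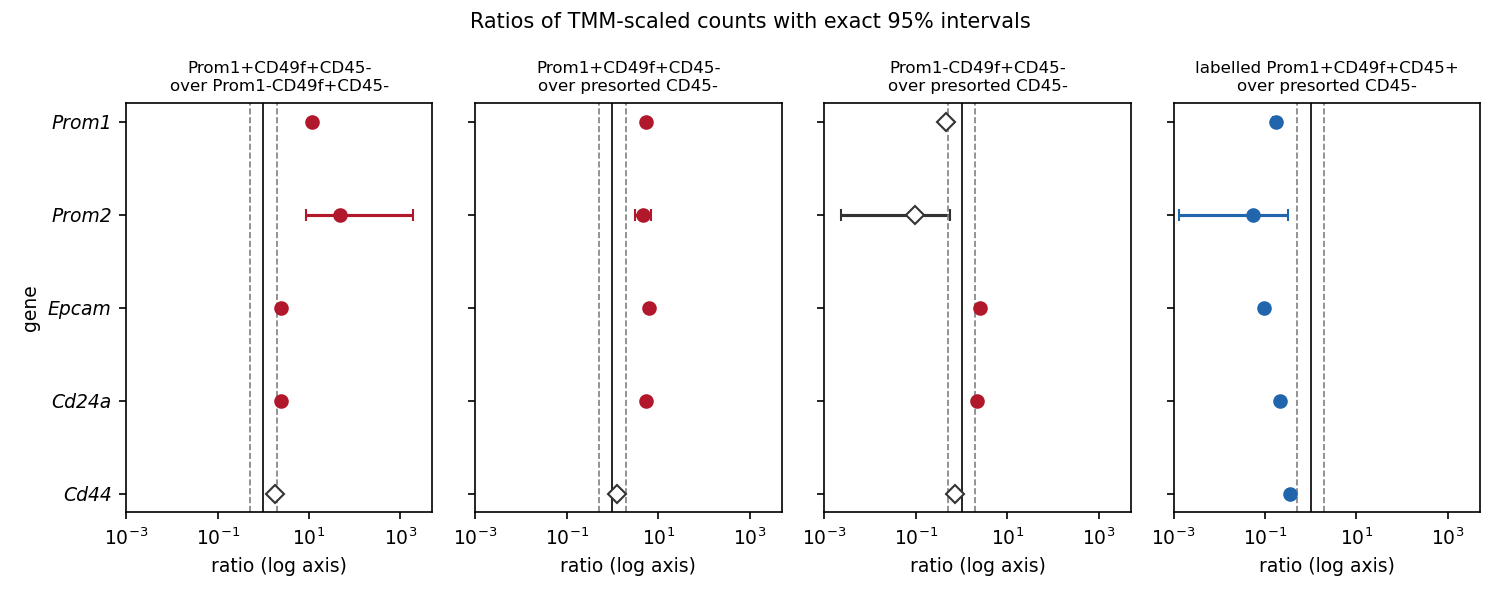
Ratios of TMM-scaled counts for the 5 genes in 4 comparisons, on a log axis, with exact 95% intervals. Filled circles are called (red higher, blue lower), open diamonds are not, and dashed lines mark 2-fold. Cd44 is called in the panel of the library labelled Prom1+CD45+ only.

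Set directly against the library labelled Prom1+CD45+, Prom1+CD45- cells had all 5 genes called higher, beside 12.5% of all genes called higher and 13.1% lower. Epcam was 64.2-fold higher (56.8 to 72.9), Prom1 31.0-fold (27.6 to 35.0), Cd24a 25.2-fold (23.2 to 27.5) and Cd44 3.51-fold (3.16 to 3.92). Prom2, against 1 count, was 84.7-fold higher (14.9 to 3375). In the same comparison 14 of 15 cholangiocyte markers were called higher, with a median log2 ratio of 5.71, and 14 of 14 endothelial markers lower, with a median of -7.04. Prom1-CD45- cells had 3 of the 5 called higher than that library, beside 13.0% of all genes called higher and 17.7% lower. Epcam was 26.2-fold higher (23.1 to 29.9) and Cd24a 10.2-fold (9.33 to 11.2). Prom1 was 2.72-fold higher (2.33 to 3.16), although the label of the library it was compared with names Prom1 as positive. Cd44 had a ratio of 1.96 (1.71 to 2.25), and Prom2 had 1 count in each. Here 13 of 15 cholangiocyte markers were called higher and 0 lower, and of 14 endothelial markers 2 were called higher and 7 lower. The part of these cells in both sets of ratios was not tested.

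Ratios of counts between genes of 1 library do not depend on how libraries are scaled, but a length trend that differs between libraries still enters them. In Prom1-CD45- against presorted cells that trend was 0.51 log2 at the length of Epcam and -0.49 at that of Prom1. The count ratio of Epcam to Cd24a was 1.22 (1.19 to 1.24) in Prom1+CD45-, 1.23 (1.17 to 1.29) in Prom1-CD45- and 1.04 (1.00 to 1.09) in presorted cells. In the library labelled Prom1+CD45+ it was 0.478 (0.410 to 0.555). The intervals of the CD49f+CD45- libraries thus overlap, and Cd24a outnumbered Epcam only in the library labelled Prom1+CD45+. The count ratio of Epcam to Prom1 was 1.89 (1.85 to 1.93) in Prom1+CD45-, 8.81 (7.98 to 9.75) in Prom1-CD45-, 0.912 (0.768 to 1.08) in the library labelled Prom1+CD45+ and 1.60 (1.53 to 1.67) in presorted cells. The highest of these is in the population sorted for lack of surface Prom1, where Krt19 to Prom1 was also highest, at 6.71 counts per Prom1 count against 0.848 in Prom1+CD45- cells. The count ratio of Prom1 to Cd44 was 6.17 (5.88 to 6.47) in Prom1+CD45- cells. It was 0.965 (0.845 to 1.10) in Prom1-CD45- cells, 0.698 (0.598 to 0.814) in the library labelled Prom1+CD45+ and 1.47 (1.39 to 1.55) in presorted cells. The count ratio of the prominins, Prom1 to Prom2, was 104 (86.7 to 126) in Prom1+CD45- and 90.4 (64.2 to 132) in presorted cells, where the intervals overlap. With 1 Prom2 count it was 440 (78.6 to 17418) in Prom1-CD45- cells and 284 (50.6 to 11256) in the library labelled Prom1+CD45+.

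Genes with the most similar pattern were sought among 12741 genes, by the Euclidean distance between log2(scaled CPM + 0.5) values centred over the 4 libraries. With 4 libraries this is a description of levels that share their libraries and depth. Spp1, the gene of the CD44 ligand osteopontin, was closest to Epcam, at a distance of 0.06 log2. The count ratio of Spp1 to Epcam was 29.4 (29.0 to 29.8) in Prom1+CD45-, 29.9 (29.0 to 30.9) in Prom1-CD45-, 29.6 (26.1 to 33.6) in the library labelled Prom1+CD45+ and 28.9 (28.1 to 29.8) in presorted cells. All 4 intervals overlap, while the Epcam level itself ran from 10.4 to 670.2 scaled CPM. Spp1 was chosen for this closeness, so the constancy is not independent of the search. The count ratio of Cldn7, a claudin that binds EpCAM, to Epcam was 0.482, 0.584, 0.459 and 0.488 in the same order, with Prom1-CD45- cells above the Prom1+CD45- and presorted libraries. Krt19 to Epcam varied more, at 0.449, 0.762, 0.552 and 0.691. The other genes nearest to Epcam were Bex1, Sftpd (surfactant protein D) and Tm4sf4, a tetraspanin relative, at 0.16 to 0.27.

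**Figure D3:**
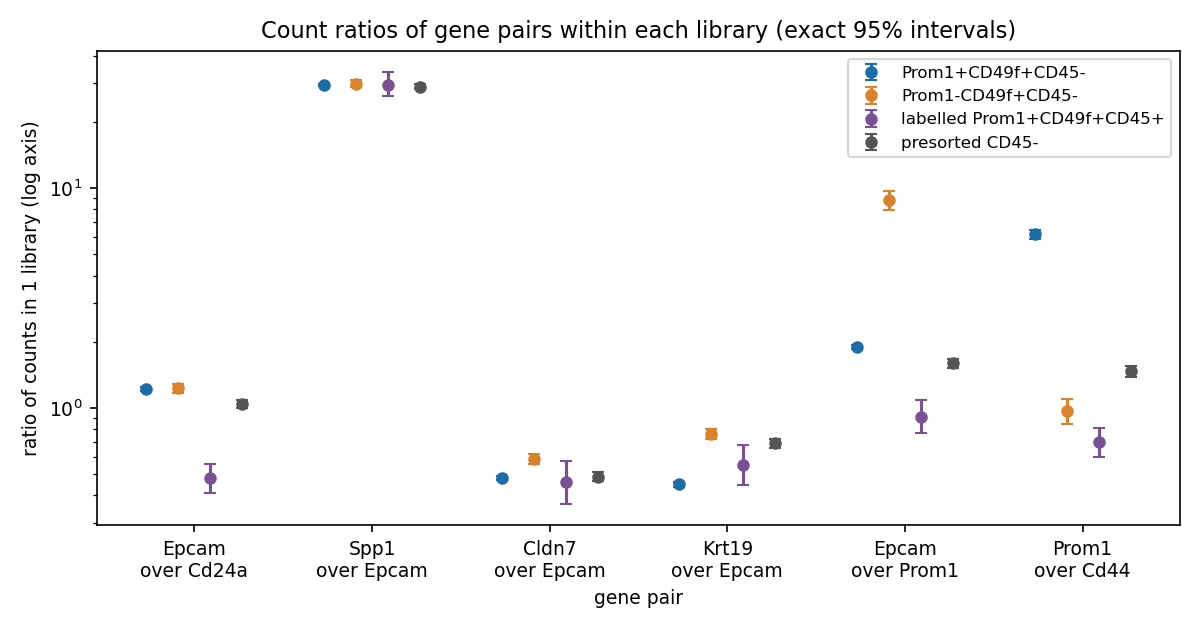
Ratios of the counts of gene pairs within each library, on a log axis, with exact 95% intervals. Spp1 over Epcam stays between 28.9 and 29.9 in the 4 libraries, while Epcam over Prom1 runs from 0.912 to 8.81.

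The 4 nearest genes to Prom1 were Dixdc1, Llgl2, Fgfr2 (a fibroblast growth factor receptor) and Carmil1, at distances of 0.19 to 0.21 log2. Fgfr2 was at 337, 29.9, 9.63 and 69.0 scaled CPM in Prom1+CD45-, Prom1-CD45-, the library labelled Prom1+CD45+ and presorted cells, beside 355, 31.1, 11.4 and 67.1 for Prom1. With 0.5 added, the nearest genes to Prom2 were Srl, Kifc3, Ralgps1, Krba1 and Meltf, at 0.13 to 0.18. Kifc3 was at 588, 89.3, 73.2 and 178 scaled CPM in the same order, beside 3.41, 0.0706, 0.0403 and 0.743 for Prom2. Their closeness rests on the 0.5 added to Prom2 levels of 1 count. The nearest genes to Cd24a were Sult2b1, Cystm1, Zfp185, Mapk13 and Ncmap, at 0.12 to 0.22. Those to Cd44 were Oxnad1, Pex11g, Fkbp4, Rab32 and Fn3k, at 0.08 to 0.19. The 5 genes were left out of the search as matches for each other, but every pair of them was farther apart than these nearest genes. Among the 5 genes themselves, Epcam and Cd24a were closest, at 1.09 log2, followed by Prom2 and Cd44 at 1.41 and Prom1 and Prom2 at 1.47. Epcam and Prom2 were farthest apart, at 3.32. The pseudocount of 0.5 shortens distances that involve Prom2, whose level was below it in 2 libraries. The order of pairs that include Prom2 therefore depends on the pseudocount, and Prom2 and Cd44 are near only with it. Ratios of Prom1+CD45- to Prom1-CD45- cells were 48.3 for Prom2, against 1 count, and 1.79 for Cd44. Against the library labelled Prom1+CD45+ they were 84.7, again against 1 count, and 3.51.

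Other surface genes used to mark progenitor cells were divided. Of 20 such genes 8 were called higher and 5 lower in Prom1+CD45- than in Prom1-CD45- cells, and 8 higher and 3 lower than in presorted cells. Of all genes 15.5% were called higher and 12.7% lower in the first comparison and 27.6% and 15.6% in the other. The 20 had median log2 ratios of 0.49 and 0.50, beside 0.45 and 0.19 for all genes. Cdh1, the gene of E-cadherin, was at 2132 scaled CPM in Prom1+CD45- cells, 183 in Prom1-CD45-, 33.8 in the library labelled Prom1+CD45+ and 373 in presorted cells. Its ratio to Prom1-CD45- cells, 11.6 (11.2 to 12.1), was close to that of Prom1. Tnfrsf19, a tumour necrosis factor receptor family gene, was 10.8-fold higher (9.40 to 12.5) in that comparison. Cd9, a tetraspanin gene, was 3.75-fold lower (3.67 to 3.83) in Prom1+CD45- than in Prom1-CD45- cells. Kit, a receptor tyrosine kinase gene, was 106-fold lower (89.9 to 126) than in presorted cells. Thy1 had 0 counts in Prom1+CD45- cells and 69 in Prom1-CD45- cells. With the 0 set to the floor of 3 counts it was 55.7-fold lower, a value that leaves out counting error. Itgb1, the integrin beta 1 gene, was not called in these comparisons, with ratios of 1.04 (1.01 to 1.07) to Prom1-CD45- and 0.593 (0.582 to 0.603) to presorted cells.

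Genes whose products bind or cut EpCAM were compared next. Of 16, 3 were called higher and 1 lower against Prom1-CD45- cells, and 6 higher and 2 lower against presorted cells, with median log2 ratios of 0.37 and 0.47. Over all genes the calls were 15.5% higher and 12.7% lower, and 27.6% and 15.6%, with medians of 0.45 and 0.19. Spint1, an inhibitor of the membrane protease matriptase that cuts EpCAM, was at 254, 56.2, 3.91 and 40.9 scaled CPM in Prom1+CD45-, Prom1-CD45-, the library labelled Prom1+CD45+ and presorted cells. Tspan8, a tetraspanin gene, was at 339.8, 179.8, 6.97 and 53.8 in the same order and 6.32-fold higher (6.05 to 6.61) in Prom1+CD45- than in presorted cells. Psen2, a subunit gene of the gamma-secretase that cuts EpCAM and CD44 in the membrane, was 4.63-fold lower (4.37 to 4.90) in that comparison. Adam10, a protease gene that sheds their outer parts, was 2.12-fold lower (2.04 to 2.19). Ncstn, another gamma-secretase subunit gene, was not called, with a ratio of 0.687 (0.667 to 0.708).

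Among genes of CD44 ligands, processing and linkage to actin, 20 of 21 were compared, and the lower calls outnumbered the higher. Against Prom1-CD45- cells 5 were called higher and 8 lower, and against presorted cells 4 higher and 9 lower, with median log2 ratios of 0.01 and -0.99. All genes had medians of 0.45 and 0.19, with 15.5% called higher and 12.7% lower in the former comparison and 27.6% and 15.6% in the latter. Spp1 was 6.34-fold higher (6.31 to 6.38) in Prom1+CD45- than in presorted cells. The hyaluronan receptor genes Stab2 and Lyve1 went the other way in that comparison. Stab2 was 164-fold lower (152 to 179) and Lyve1 97.7-fold lower (85.5 to 112), and both also mark liver sinusoidal endothelium. Of the linker genes, Msn (moesin) was 15.7-fold lower (15.0 to 16.5) and Ezr (ezrin) 3.75-fold higher (3.64 to 3.86), while Rdx (radixin) had a ratio of 1.07 (1.04 to 1.11) and was not called. Cd44 itself thus stood at a ratio of 1.26 beside ligand and linker genes called in opposite directions.

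Genes of CD24 ligands and of the kinases that signal beside it form a short list. Of 8, 2 were called higher and 2 lower against Prom1-CD45- cells, and 0 higher and 3 lower against presorted cells, with median log2 ratios of -0.84 and -0.24. Against Prom1-CD45- cells 15.5% of all genes were called higher and 12.7% lower (median 0.45), and against presorted cells 27.6% and 15.6% (median 0.19). Src, a kinase gene, was at 21.1 scaled CPM in Prom1+CD45-, 3.67 in Prom1-CD45-, 2.09 in the library labelled Prom1+CD45+ and 9.50 in presorted cells. It was 5.75-fold higher (4.34 to 7.78) against Prom1-CD45- cells, and its ratio to presorted cells was 2.22 (1.97 to 2.51), not called. Selp, the gene of the CD24 ligand P-selectin, was 151-fold lower (95.3 to 256) in Prom1+CD45- than in Prom1-CD45- cells, and Fyn, a Src family kinase gene, 43.9-fold lower (37.0 to 52.4). Of 9 prominin partner genes compared, of 10 listed, 1 was called higher and 1 lower in each of those comparisons, beside the same shares of all genes, and the median log2 ratios were 0.26 and 0.10. Il6st, the gene of the shared interleukin-6 receptor chain, was 17.3-fold lower (16.9 to 17.8) than in presorted cells. Ttyh1, a membrane protein gene linked to prominin-1 protrusions, was 4.17-fold higher (3.39 to 5.16).

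Apical microvillus genes were compared because prominins sit in microvilli. Of 11, 5 were called higher and 0 lower against Prom1-CD45- cells, and 5 higher and 3 lower against presorted cells, with median log2 ratios of 1.02 and 0.16. The shares of all genes were 15.5% and 12.7%, then 27.6% and 15.6%, and the medians 0.45 and 0.19. In the library labelled Prom1+CD45+ 0 were called higher and 8 lower than in presorted cells, beside 23.8% and 12.1% of all genes. Vil1 (villin), which bundles actin in microvilli, was at 29.7, 4.10, 1.01 and 5.22 scaled CPM in Prom1+CD45-, Prom1-CD45-, the library labelled Prom1+CD45+ and presorted cells. Its ratio to Prom1-CD45- cells was 7.24 (5.56 to 9.61) and that to presorted cells 5.68 (4.92 to 6.58). Eps8, an actin-capping protein gene, and Ush1c (harmonin), a scaffold of microvillus tips, were 3.85-fold (3.30 to 4.52) and 3.64-fold (2.40 to 5.74) higher than in Prom1-CD45- cells. Pdzk1, a scaffold gene, was 13.8-fold lower (10.0 to 19.3) in Prom1+CD45- than in presorted cells. Podxl, a sialomucin gene also made in endothelium, was 4.55-fold lower (4.36 to 4.75).

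**Figure D4:**
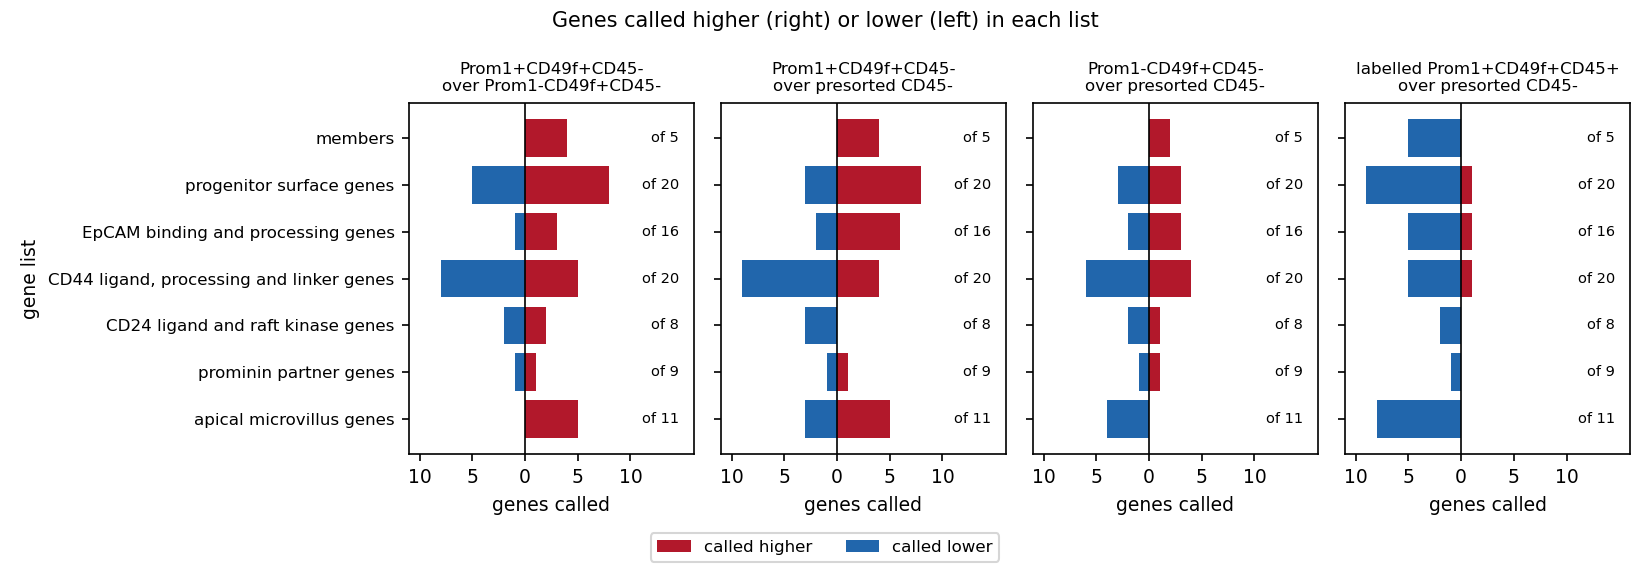
Number of genes called higher (red, right) or lower (blue, left) among the 5 genes and in 6 related gene lists, in 4 comparisons, with the number compared at the right of each row. The lists share some genes. All 5 genes are called lower in the library labelled Prom1+CD45+, as are 8 of 11 apical microvillus genes.

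Of 10 genes flanking the 5 on their chromosomes, Fgfbp1 alone had its highest level in Prom1+CD45- cells. Pdhx, next to Cd44, was at 25.6, 27.6, 29.3 and 28.8 scaled CPM in Prom1+CD45-, Prom1-CD45-, the library labelled Prom1+CD45+ and presorted cells. Tapt1, next to Prom1, was at 44.0, 22.5, 49.0 and 65.4 in the same order. Fgfbp1, on the other side of Prom1 at 11841 bases, had 26, 2, 1 and 8 counts. Its 0.759 scaled CPM in Prom1+CD45- cells was below 0.846, the 95th percentile of the olfactory, vomeronasal and taste receptor genes in that library. Gm16401, an antisense gene that overlaps the 5′ end of Prom1, had 14, 1, 0 and 4 counts, against 12173, 440, 284 and 2983 for Prom1. The handling of strand in counting was not given in the sources used here, and reads of Gm16401 and Prom1 in the overlap cannot be told apart.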

How the data were processed

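Gene expression was measured in 4 sorted or presorted mouse liver cell libraries. The authors deposited estimated counts per gene and a table of CPM values to which 1 had been added. The submitters' processing notes name TopHat2, Partek 3 and mm10, while counting settings, strand handling and annotation were not given in the sources used here. Columns of the sorted populations carried the numbers in the series' design text, and the column named CD45 was assigned to presorted CD45- cells, which no other column matched. Of the table's columns, 0 were without a sample.

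Of 41128 identifiers 874 had no symbol in GENCODE vM21 (mm10). Estimated counts were rounded and scaled by TMM (edgeR 4.0.16, R 4.3.3) over genes reaching 10 counts in any library. Levels have exact Poisson and ratios exact conditional binomial 95% intervals (scipy 1.17.1). These cover counting error only, since amplified reads are not independent molecules. With 1 library per population no test was made. A gene was called where its whole interval lay beyond 2-fold, and a library at 0 counts was set to a floor of 3, which is 0.0675 to 0.212 scaled CPM. The calculation was tested on simulated data. The authors' CPM with their added 1, DESeq2 1.42.0 size factors, library totals, other count minimums, other folds and removal of a length trend were tried as alternatives.

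The 5 genes, 6 pathway lists and 12 cell type lists were chosen with earlier results of these data known. Of each pathway list, genes could be named that were among the 4 with the highest mean level or the 2 with the largest ratio in each direction between Prom1+CD45- and presorted cells. Of each cell type list the 2 highest could be named. The 5 genes nearest in pattern, sought among genes reaching 100 counts in any library, and the genes next to each of the 5 on the chromosome were also named. Predicted genes, chemosensory receptors and immune receptor segments were left out of the pattern search, as were the 5 genes themselves as matches. Tff2 is named outside this rule because it was at 0 counts. Not every gene taken by the rule is reported here.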

Additional observations from a re-analysis of the deposited data

How the results depend on the processing

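No paired analysis was possible because each population had 1 library and the labels carry no replicate numbers. Ratios of the 5 genes were recomputed with DESeq2 size factors, library totals, the authors' CPM + 1 and the length trend removed. None of these 120 changed direction, but Prom2 ratios of Prom1+CD45- cells changed in size. The 48.3-fold against Prom1-CD45- cells fell as low as 3.39-fold. The 84.7-fold against the library labelled Prom1+CD45+ fell as low as 3.47-fold. Of the 120 ratios, 4 lost their call. These were Epcam (log2 0.84) and Cd24a (0.80) in Prom1-CD45- against presorted cells with the length trend removed, and Cd44 with library totals (-1.14) and Prom2 in the authors' CPM + 1 (-0.52, from 0.0357 and 0.488 CPM before the addition) in the library labelled Prom1+CD45+ against presorted cells. In the last comparison 5 genes were called lower, and 3 with a 4-fold rule, beside 2615 and 1394 of all 21640 genes. With the 4-fold rule the 4 called higher in Prom1+CD45- against Prom1-CD45- cells became 2, while 3349 of all genes became 836. In Prom1-CD45- against presorted cells the 2 called higher became 0 with a 4-fold rule, while 2115 of all genes became 716. The same 2 became 0 with the length trend removed and 1 with a minimum of 1 count. The 0 called lower became 1 with that minimum. With a 1.5-fold rule the 0 became 2, while 3056 of all genes became 4787. Over all genes, calls in that comparison moved by no more than 1.5 times with the length trend removed or with that minimum.

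DESeq2 size factors moved all log2 ratios by -0.17 in Prom1+CD45- against Prom1-CD45- cells, 0.17 in Prom1-CD45- against presorted cells and 0.21 in Prom1-CD45- cells against the library labelled Prom1+CD45+. Library totals moved them by 0.23, 0.18 and -0.16 there, by 0.42 in Prom1+CD45- against presorted cells and by 0.34 in the library labelled Prom1+CD45+ against presorted cells. In Prom1-CD45- against presorted cells 40.9% of all calls were higher, and 51.5% with DESeq2 and 52.5% with library totals. In Prom1+CD45- against Prom1-CD45- cells the share was 54.8%, and 66.9% with library totals. In Prom1-CD45- cells against the library labelled Prom1+CD45+ it was 42.2%, and 54.6% with DESeq2.

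Over all genes, counts of calls moved by more than 1.5 times as follows. Prom1+CD45- against Prom1-CD45- had 3349 higher (5504 at 1.5-fold, 836 at 4-fold) and 2758 lower (1345 at 4-fold). Prom1+CD45- against presorted cells had 5963 higher (3361 with a minimum of 50 counts, 3230 in the authors' CPM + 1, 3058 at 4-fold) and 3378 lower (1960 at 4-fold). Prom1-CD45- against presorted cells had 2115 higher (3616 at 1.5-fold, 716 at 4-fold) and 3056 lower (4787 and 839). The library labelled Prom1+CD45+ against presorted cells had 5154 higher (1889 with a minimum of 50 counts, 3000 in the authors' CPM + 1) and 2615 lower (1394 at 4-fold). Prom1+CD45- cells against that library had 2711 higher (1544 at 4-fold) and 2830 lower (1439). Prom1-CD45- cells against it had 2804 higher (4278 at 1.5-fold, 1097 at 4-fold) and 3840 lower (6206 and 791). Of 40 levels, 17 moved by more than their interval.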
